A study of Mus musculus with 54 samples.

Results

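The regions around the Myc family genes Myc, Mycn and Mycl, their partner gene Max, and the Lin28 family genes Lin28a and Lin28b were examined in a list of regions accessible to the Tn5 transposase in mouse embryonic stem (ES) cells. Of 113737 merged ATAC-seq peaks, 122 (0.107%) were centred within 100 kb of an annotated TSS of these 6 genes. Of these peaks, 87 lay around the 4 genes of the Myc group and 35 around both Lin28 genes, and none was near more than 1 of the 6. Peaks became members by gene name and position, without any measured value. The genes themselves were chosen with earlier results of these data known.

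The study addressed when in the cell cycle OCT4 maintains open chromatin, and how fast accessibility follows its loss and return. The cells were ZHBTc4 ES cells, in which doxycycline (dox) silences Pou5f1, the gene for OCT4, and all of them received dox. They carried TIR1, the cell cycle reporter YPet-MD and mCherry-OCT4-AID, an OCT4 fusion made at a low constant level from a PGK promoter and degraded when indole-3-acetic acid (IAA) is added. The 54 samples formed 24 groups of 2 or 3 replicates. In the cell cycle set, 22 samples with 26 hr of dox had either no IAA or 500 nM of it for 2 hr and were sorted into early G1, late G1, S and late S with G2. In the washout set, 16 samples with 31 hr of dox received IAA for 2.5 hr or not, followed by 4.5 hr of washout and the same sort. In the time course, 16 unsorted samples with 34 hr of dox were left untreated or given IAA for 0.5, 1, 2, 3, 4, 6 or 10 hr. The line was a sorted pool rather than 1 clone. All peaks came from 1 list merged over these libraries, so no peak had a value in a sample, the treatments could not be compared here, and the cell type could not be checked against markers per sample.

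MYC, MYCN and MYCL are transcription factors that bind DNA as heterodimers with MAX, mainly at the E-box sequence CACGTG, and promote growth and proliferation. MAX also pairs with the repressors of the MXD group, and thus sits at the centre of the network. LIN28A and LIN28B are RNA-binding proteins that hold back the maturation of let-7 microRNAs. LIN28A recruits the terminal uridylyltransferases TUT4 and TUT7 to the let-7 precursor, and the tailed precursor is degraded by DIS3L2. Both families are known for their roles in ES cell self-renewal, and Myc, Mycn, Lin28a and Hmga2 transcripts are among known let-7 targets.

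The promoters differed in base composition and in how far the peaks covered them. They are printed here because Lin28b had the lowest GC content and was the only one without a base in a peak. RefSeq promoter sequences, of 250 bases before and 50 bases after the gene start, were matched for 5 of the 6 genes, all but Myc. They are from GRCm38.p6, each read 5′ to 3′ on the strand of its gene, with CG dinucleotides in capitals. The Mycn promoter is chr12:12941787-12942086 (minus strand), the Mycl promoter chr4:122995681-122995980 (plus), the Max promoter chr12:76962199-76962498 (minus), the Lin28a promoter chr4:134018767-134019066 (minus) and the Lin28b promoter chr10:45470152-45470451 (minus). The last line gives chr10:45486154-45486453 (minus), the centre of a peak at the upstream start sites of Lin28b.
Mycn promoter: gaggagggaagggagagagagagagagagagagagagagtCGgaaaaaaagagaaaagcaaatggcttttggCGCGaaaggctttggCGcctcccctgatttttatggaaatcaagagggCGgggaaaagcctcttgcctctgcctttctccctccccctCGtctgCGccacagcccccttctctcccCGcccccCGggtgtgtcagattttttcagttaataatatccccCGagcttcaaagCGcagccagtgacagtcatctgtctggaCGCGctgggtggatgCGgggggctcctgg
Mycl promoter: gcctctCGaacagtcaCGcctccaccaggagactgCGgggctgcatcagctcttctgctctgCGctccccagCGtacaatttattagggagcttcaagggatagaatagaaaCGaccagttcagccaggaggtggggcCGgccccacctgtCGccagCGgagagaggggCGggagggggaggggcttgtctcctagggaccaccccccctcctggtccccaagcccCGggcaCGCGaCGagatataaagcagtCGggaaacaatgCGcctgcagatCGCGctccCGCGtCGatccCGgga
Max promoter: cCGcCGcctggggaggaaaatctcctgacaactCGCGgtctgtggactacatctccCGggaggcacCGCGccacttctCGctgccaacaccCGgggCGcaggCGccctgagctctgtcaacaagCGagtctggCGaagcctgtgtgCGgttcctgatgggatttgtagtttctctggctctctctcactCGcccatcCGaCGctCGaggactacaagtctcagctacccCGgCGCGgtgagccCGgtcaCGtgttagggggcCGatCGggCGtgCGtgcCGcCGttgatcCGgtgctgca
Lin28a promoter: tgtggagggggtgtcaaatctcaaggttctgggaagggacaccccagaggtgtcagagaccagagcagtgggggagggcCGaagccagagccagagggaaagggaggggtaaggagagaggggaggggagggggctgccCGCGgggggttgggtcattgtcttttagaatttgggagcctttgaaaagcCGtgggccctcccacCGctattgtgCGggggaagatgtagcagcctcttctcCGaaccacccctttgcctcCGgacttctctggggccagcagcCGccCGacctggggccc
Lin28b promoter: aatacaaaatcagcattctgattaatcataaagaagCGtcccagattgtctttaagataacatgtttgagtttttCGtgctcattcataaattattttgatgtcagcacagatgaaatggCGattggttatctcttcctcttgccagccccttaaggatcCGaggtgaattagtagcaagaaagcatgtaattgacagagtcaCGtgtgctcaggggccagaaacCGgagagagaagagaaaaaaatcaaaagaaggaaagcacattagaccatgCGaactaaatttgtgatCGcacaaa
Lin28b upstream peak centre: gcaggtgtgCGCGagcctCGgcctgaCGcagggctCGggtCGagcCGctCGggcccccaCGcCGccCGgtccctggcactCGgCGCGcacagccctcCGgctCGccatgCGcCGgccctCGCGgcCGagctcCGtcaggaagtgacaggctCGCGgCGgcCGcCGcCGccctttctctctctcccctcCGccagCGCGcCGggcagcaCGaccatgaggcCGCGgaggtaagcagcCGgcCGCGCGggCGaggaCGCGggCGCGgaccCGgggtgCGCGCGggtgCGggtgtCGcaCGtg

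The promoters of Mycl, Max and Lin28a lay wholly inside a peak (300 of 300 bases each). The Mycn promoter was covered over 224 of its 300 bases. The Lin28b promoter held 0 bases of any peak. Of all 32851 RefSeq promoters in the table, 50.3% touched a peak and 41.4% lay wholly inside peaks, so a promoter without any peak was about as common as one with a peak. Its GC content was 39.0%, with 8 CG dinucleotides and an E-box that began at position -49 from the TSS. The upstream Lin28b peak centre had a GC content of 79.0% and 51 CG dinucleotides over the same length.

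Among the other promoters, Max had the most CG dinucleotides (30, GC content 64.7%) and an E-box at position -3. Mycl had 22 at a GC content of 64.0% and a KLF match at position -74, and Mycn had 14 at 56.7%. Lin28a was rich in GC (63.3%) with only 10 CG dinucleotides. The observed-to-expected CpG ratio was 0.58 for Mycn, 0.72 for Mycl, 0.96 for Max, 0.35 for Lin28a and 0.71 for Lin28b. The median over all RefSeq promoters was a GC content of 52.7% with 7 CG dinucleotides. An E-box stood in 7.15% of all promoters and a KLF match in 25.8%. These matches are letters in a window and were not tested for binding.

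A peak centred within 1 kb of an own TSS was present at all 6 genes. The share over protein-coding genes was 70.8%. The numbers of own-TSS peaks were 3 for Myc, 2 for Mycn, 1 for Mycl, 2 for Max, 4 for Lin28a and 2 for Lin28b, 14 in all. Thus 5 of the 6 genes had at least 2 such peaks, against 17.8% of protein-coding genes. This count depended on the annotation and the limit, since 2 of the 6 genes had at least 2 with GENCODE basic transcripts alone (7.95% of protein-coding genes) and 2 of the 6 with a limit of 500 bp (11.9%). The number of annotated TSSs differed between the genes (6, 3, 5, 7, 4 and 3 distinct positions in the same order), and a gene with more TSSs has more chances to hold such a peak. Own-TSS peaks had a median width of 648 bp and the median of all 23940 TSS peaks was 970 bp. The map of peaks by distance shows these own-TSS peaks as red bars beside the distal peaks of each gene.

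**Figure D1:**
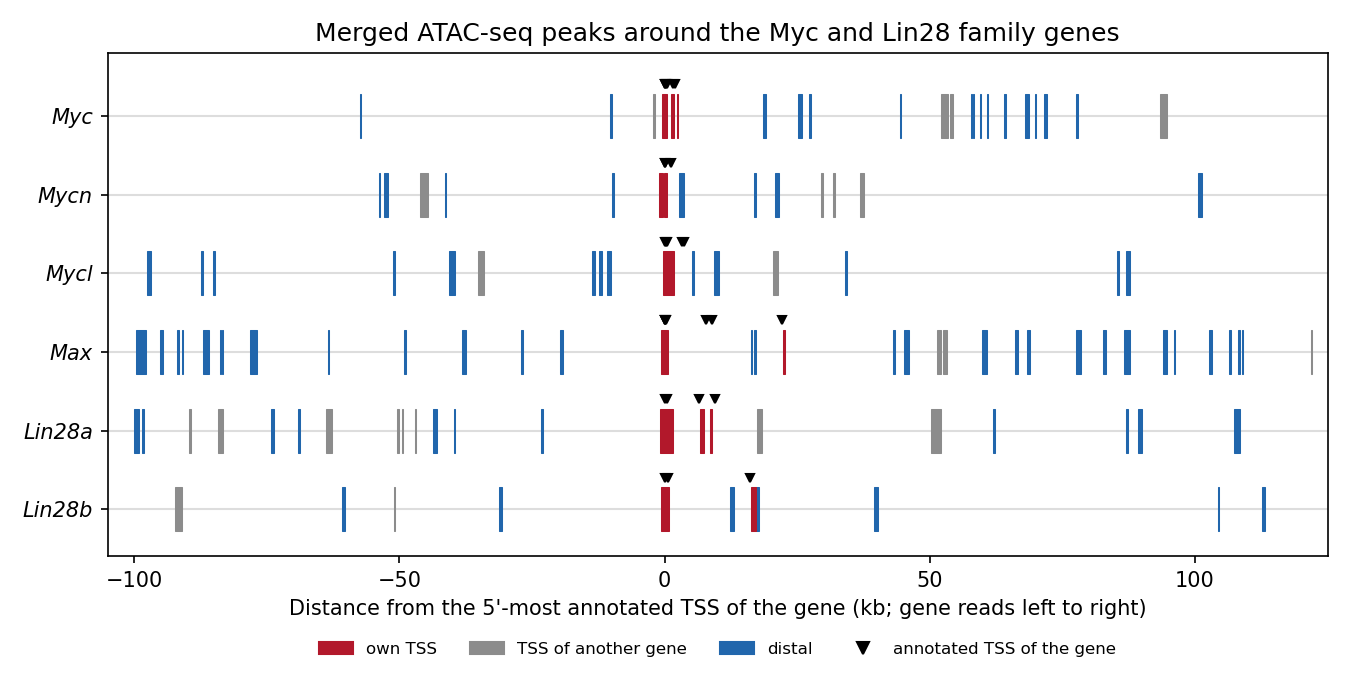
Merged ATAC-seq peaks around each gene, drawn to scale by distance in kb from the 5′-most annotated TSS, with the gene read from left to right. Red bars are own-TSS peaks, grey bars peaks at the TSS of another gene, blue bars distal peaks and triangles annotated TSSs; Max has the densest row with 29 distal peaks and Lin28b the sparsest with 7.

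At Myc, the peaks covered 4 of the 6 annotated start sites, and the remaining ones lay 43 and 160 bp from the nearest peak edge. A peak of 1016 bp (chr15:61984864-61985879) covered the 3 upstream TSSs and was centred 0.0195 kb from the nearest. A second peak of 632 bp (chr15:61986631-61987262) covered an internal TSS, and a narrow one of 201 bp (chr15:61987732-61987932) lay in an exon 0.41 kb from the last TSS. The GC content of these peaks was 60.5, 62.7 and 54.7%. Their widths stood at percentiles 53.0, 30.8 and 2.28 of all TSS peaks, so the main Myc promoter peak was of ordinary width.

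Mycn and Mycl differed in the shape of their promoter peaks. Mycn had a pair of neighbouring peaks of similar width, 635 bp at its main TSS (chr12:12941376-12942010) and 645 bp centred 0.693 kb upstream (chr12:12942285-12942929), both with a KLF match in their central 300 bp. These were the only KLF matches among the 14 own-TSS peaks, and 29.2% of all TSS peaks held one there. Mycl had 1 undivided peak of 2023 bp (chr4:122995351-122997373), which covered 3 of its 5 TSSs and stood at percentile 96.7 of TSS peak widths. It was the widest own-TSS peak of the 6 genes. The widths of both Mycn peaks added up to 1280 bp. A further protein-coding TSS of Mycn lay outside every peak, 760 bp from the nearest edge.

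At Max, a peak of 1334 bp (chr12:76961580-76962913) covered 4 of the 7 TSSs, including the 3 annotated as protein-coding. The other own-TSS peak, of 244 bp (chr12:76939566-76939809), lay in an intron 0.306 kb from the start of a transcript annotated for nonsense-mediated decay. With GENCODE basic transcripts alone, the number of own-TSS peaks of Max fell from 2 to 1. An E-box stood in the central 300 bp of the wide peak, and 6.97% of all TSS peaks held one there.

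The Lin28 genes differed in where their widest peak lay relative to the start of the coding transcript. For Lin28a, a peak of 1888 bp (chr4:134017821-134019708) covered the main TSS and stood at percentile 95.1 of TSS peak widths. The other 3 own-TSS peaks, of 567, 652 and 284 bp, lay 1.39, 7.11 and 8.79 kb downstream of that TSS in introns. They lay within 1 kb of TSSs of transcripts outside the GENCODE basic set, and with basic transcripts alone the number of own-TSS peaks fell from 4 to 1. The 567 bp peak was closer to a TSS of Gm13061, annotated as a processed transcript, than to one of Lin28a. The widths of the 4 peaks added up to 3391 bp.

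For Lin28b, the TSS of its only basic transcript, which is also its only TSS annotated as protein-coding (chr10, position 45470201), lay outside every peak, 120 bp from the edge of a peak of 934 bp downstream of it (chr10:45469148-45470081). That peak had a GC content of 45.3% and an observed-to-expected CpG ratio of 0.40. A wider peak of 1565 bp (chr10:45485521-45487085) covered 2 TSSs of processed transcripts, the farther of which lay 16.2 kb upstream of the coding TSS. Its GC content was 70.4% and its CpG ratio 1.09, against medians of 57.0% and 0.58 over all TSS peaks. With basic transcripts alone, this wide peak was counted as distal, so Lin28b had 1 own-TSS peak and 8 distal peaks. Which start site the cells used was not measured here.

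**Figure D2:**
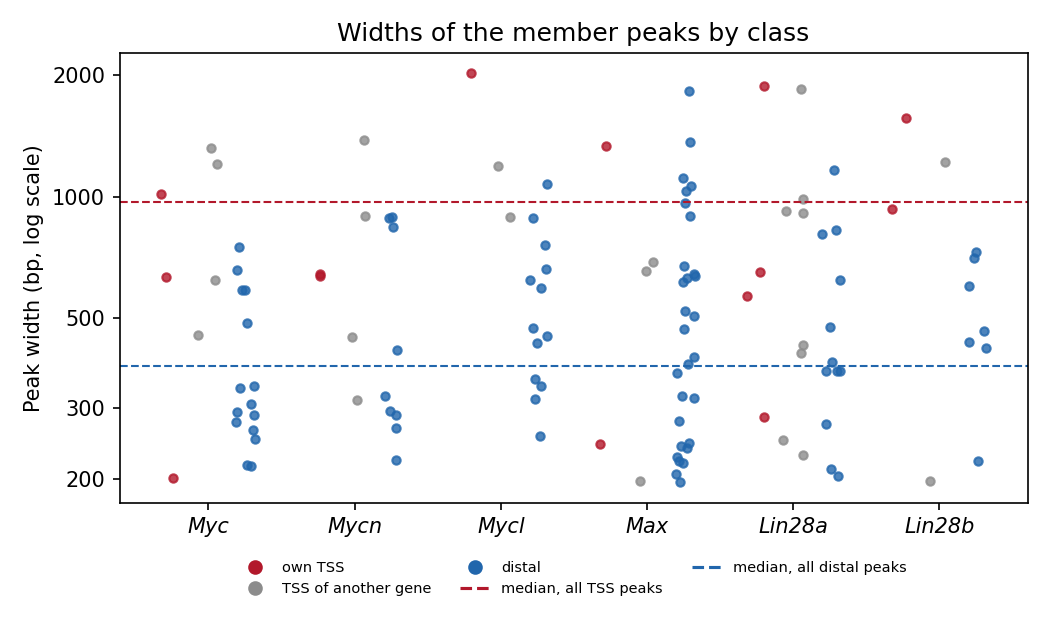
Width of each member peak in bp on a log axis, by gene and class, with dashed lines at the medians of all TSS peaks (970 bp, red) and all distal peaks (380 bp, blue). The widest own-TSS peaks of Mycl, Max, Lin28a and Lin28b lie above the red line together with that of Myc, whereas both Mycn peaks lie below it.

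Away from start sites, Max had 29 distal peaks, Myc 15, Mycl 13, Lin28a 12, Mycn 9 and Lin28b 7, 85 in total. The order depended on the TSSs counted. With TSSs of protein-coding genes only, Mycn had 13, equal to Mycl (13) and above Lin28a (12). Lin28a had 16 with basic transcripts alone, equal to Myc and above Mycl (13), 16 with a TSS limit of 500 bp and 8 with one of 2500 bp. Over all protein-coding genes the median was 9 distal peaks, with quartiles of 5 and 13 and a 95th percentile of 22. Max thus stood at percentile 98.8 of protein-coding genes, Myc at 81.0, Mycl at 73.2, Lin28a at 68.4, Mycn at 52.3 and Lin28b at 40.0. Since a gene with scattered TSSs has a wider window (from 201 kb for Mycn to 222 kb for Max), the counts were also taken per 100 kb. These were 13.1 for Max, 7.42 for Myc, 6.38 for Mycl, 5.73 for Lin28a, 4.47 for Mycn and 3.24 for Lin28b. The order was that of the counts. Around the 100 kb limit, the farthest peaks inside were centred at 92.0 kb for Myc and 96.7 to 99.7 kb for the other 5 genes, and the nearest outside at 100.3 kb for Myc to 112.1 kb for Mycn. Relative to the mean of its own chromosome, Max was 3.91-fold denser in distal peaks and Myc 1.79-fold, and Lin28b was the only member below its chromosome (ratio 0.817). The Lin28b ratio used the 216 kb window set by all of its annotated TSSs. With basic transcripts alone Lin28b had 8 distal peaks, and the ratio was not recomputed.

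**Figure D3:**
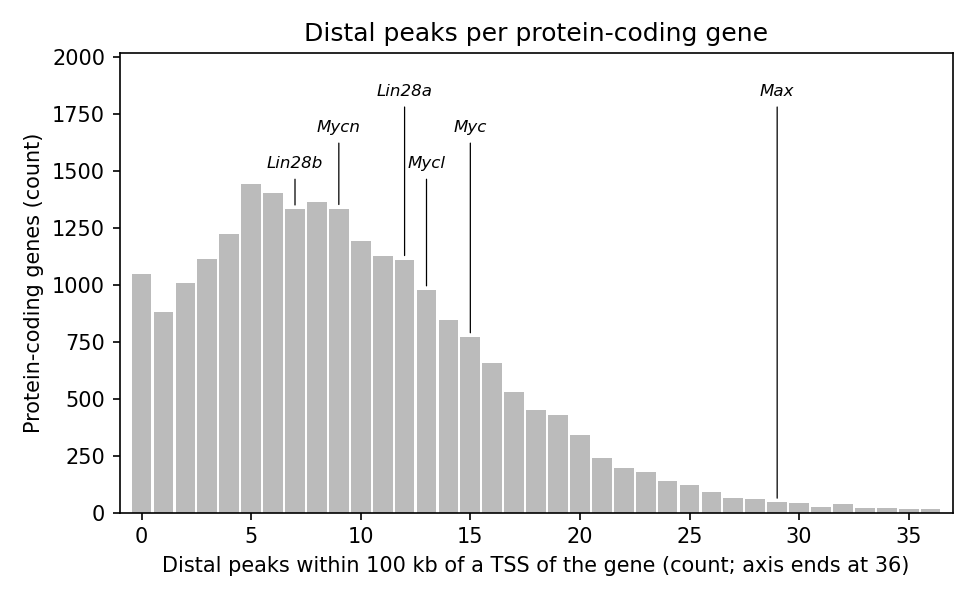
Number of protein-coding genes by how many distal peaks lay within 100 kb of a TSS, with the axis ending at 36 peaks and lines marking the 6 genes. Lin28b and Mycn stand near the median of 9, Lin28a, Mycl and Myc to its right, and Max in the sparse tail at 29.

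How these peaks were spread in distance also set the members apart. The nearest distal peak was centred 1.3 kb from a TSS for Lin28b, 1.67 kb for Mycl, 1.87 kb for Mycn, 5.18 kb for Max, 10.1 kb for Myc and 23.1 kb for Lin28a. The values for Max and Mycl were taken from TSSs outside the GENCODE basic set. From the 5′-most TSS of each gene, these peaks lay 17.0 kb (Max) and 5.36 kb (Mycl) downstream, so the order rested on the annotation. The median distance was lowest for Lin28b (30.9 kb) and highest for Lin28a (73.8 kb). Within 20 kb, Lin28a had 0 distal peaks and Lin28b 2, although Lin28a had more over the whole window. This rested on which TSSs were counted. With basic transcripts alone, intronic Lin28a peaks counted as own-TSS became distal, and Lin28a then had 2 distal peaks within 20 kb, the nearest at 7.11 kb, and Lin28b 3. With a TSS limit of 500 bp, both had 3, the nearest at 0.643 kb for Lin28a and 0.587 kb for Lin28b. In the Myc group, Mycl had the most distal peaks within 20 kb (5, against 4 for Mycn, 3 for Max and 2 for Myc), and Max overtook Mycl only at greater distance. The plot of cumulative counts shows these crossings.

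**Figure D4:**
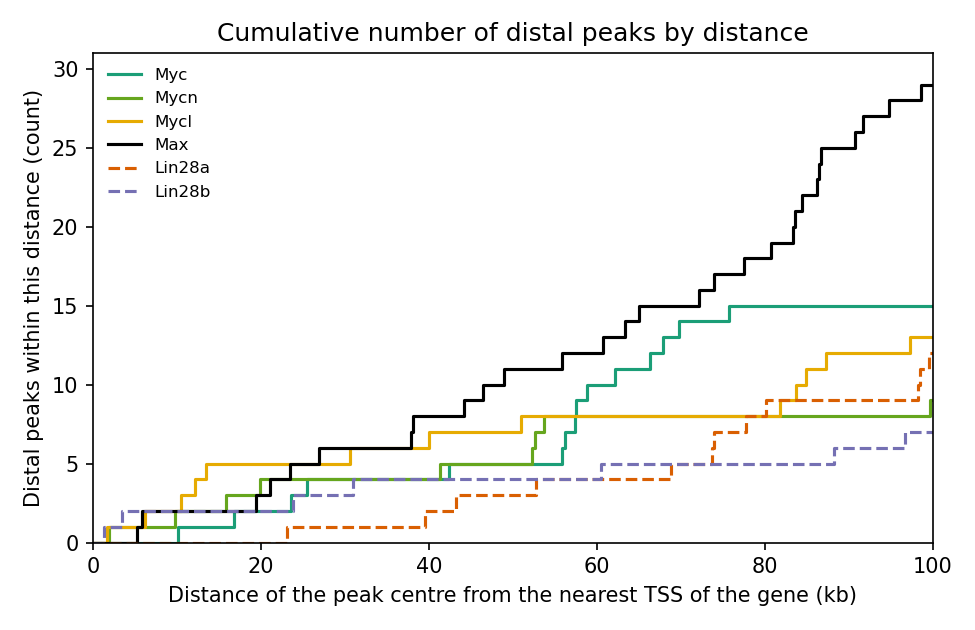
Cumulative number of distal peaks against the distance in kb of the peak centre from the nearest TSS of the gene, with solid lines for the Myc group and dashed lines for the Lin28 genes. Myc gains 10 of its 15 peaks beyond 50 kb and none beyond 75.7 kb, Lin28a gains 9 of its 12 beyond 50 kb, and Max rises throughout to 29.

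The 15 distal peaks of Myc lay mostly on 1 side. Of these, 13 were downstream and 2 upstream of the nearest Myc TSS, and the longest stretch without a peak, of 47.1 kb, was on the upstream side. A group of 9 distal peaks stood within 20.2 kb (chr15:62043107-62063294), all of them in introns of Pvt1, a long non-coding RNA gene beside Myc. The nearest distal peak, of 251 bp, was 10.1 kb upstream (chr15:61975173-61975423). The widest, of 751 bp, was intergenic and 23.6 kb downstream (chr15:62010650-62011400). No other protein-coding gene had a TSS in the window, so Myc was the nearest protein-coding gene of all 15. The 4 remaining peaks of the window stood at TSSs of genes not annotated as protein-coding, among them Pvt1.

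The 9 distal peaks of Mycn were spread to both sides, 5 upstream and 4 downstream. As for Myc, no other protein-coding gene had a TSS in the window. The widest distal peaks, of 892 bp (19.9 kb downstream, chr12:12920272-12921163) and 885 bp (1.87 kb downstream, in an intron of Mycn, chr12:12938301-12939185), were also wider than both own-TSS peaks. The latter was the nearest to a Mycn TSS. A stretch of 62.9 kb further downstream held no peak. Of the 9 distal peaks, 8 were intergenic.

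The 13 distal peaks of Mycl, 8 upstream and 5 downstream, shared their window with Mfsd2a, which encodes a lysophosphatidylcholine transporter, and Trit1, which encodes a tRNA isopentenyltransferase. Both had an own-TSS peak. Mycl was the nearest protein-coding gene of only 5 of the 13. The nearest distal peak, of 353 bp, lay in a Mycl exon 1.67 kb downstream of the TSS of a processed transcript (chr4:123000832-123001184). The widest, of 1078 bp, lay 40.1 kb upstream in an intron of Mfsd2a, 4.41 kb from the TSS of that gene (chr4:122955045-122956122).

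Of the 29 distal peaks of Max, 14 lay in introns of Fntb, which encodes the beta subunit of protein farnesyltransferase, and for 14 the nearest protein-coding TSS was that of Fntb. The other 15 were nearest to Max, which is equal to the number for Myc. Only 2 distal peaks were inside Max (nearest chr12:76944977-76945376, 400 bp). The nearest of these stood 5.18 kb from the TSS of the transcript annotated for nonsense-mediated decay. Of the 7 distal members above 1000 bp (8.24% of 85, beside 7.25% of all distal peaks), 5 were at Max, which held 29 of the 85. The widest, of 1829 bp, was intergenic and 98.6 kb upstream (chr12:77059922-77061750), at percentile 99.6 of distal peak widths and close to the 100 kb limit. The window was dense throughout, and its longest stretch without a peak was 20.5 kb.

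The 12 distal peaks of Lin28a lay among other genes. The window held the TSSs of 6 other protein-coding genes, Hmgn2, Dhdds, Zfp683, Crybg2, Cd52 and Ubxn11, of which 4 had an own-TSS peak, and 8 of its 24 peaks stood at TSSs of other genes. Lin28a was the nearest protein-coding gene of 0 of the 12 distal peaks, whereas 5 were nearest to Crybg2 and 3 to Hmgn2, which encodes a nucleosome-binding protein. Peaks in Lin28a introns were not among the 12, since they were counted as own-TSS. With basic transcripts alone, 2 of them were distal. The nearest distal peak, of 390 bp, was 23.1 kb upstream but 11.9 kb from Zfp683 (chr4:134041734-134042123). The widest, of 1165 bp, was 98.5 kb downstream and 23.1 kb from Rps6ka1 (chr4:133910291-133911455).

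Of the 7 distal peaks of Lin28b, 4 stood in its own introns, and for 4 Lin28b was the nearest protein-coding gene. Lin28a had 0 distal peaks in its own introns because those there were counted as own-TSS, and with basic transcripts alone it had 2 and Lin28b 4. Lin28b spans 110 kb and Lin28a 15.5 kb, so that more of the Lin28b window was intron of the gene itself. The nearest distal peak, of 464 bp, was 1.3 kb downstream of the coding TSS and adjoined the own-TSS peak there (chr10:45468667-45469130). The widest, of 729 bp, was 23.8 kb downstream (chr10:45446075-45446803). A stretch of 64.0 kb inside the gene, chr10:45382051-45446074, held no peak, the longest such stretch of the 6 windows. The other protein-coding gene with a TSS in the window was Hace1, which encodes an E3 ubiquitin ligase and had its own TSS peak.

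The widths of distal peaks overlapped between all members. The lowest, median and highest widths were 215, 306 and 751 bp for Myc and 222, 321 and 892 bp for Mycn. They were 256, 472 and 1078 bp for Mycl and 196, 471 and 1829 bp for Max. The medians were lower for Myc and Mycn than for Mycl and Max, within overlapping ranges. For Lin28a the values were 203, 380 and 1165 bp, and for Lin28b 221, 464 and 729 bp. Over all 85 distal members the median was 422 bp, and over all 89797 distal peaks 380 bp. Distal members at Lin28b had the lowest median GC content (41.6%) and those at Lin28a the highest (51.4%), with 47.7% over all distal peaks.

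Sequences bound by pluripotency factors were counted in the distal members. A match to the composite OCT4::SOX2 consensus was found in the central 300 bp of 0 of the 85 distal members and of 0.968% of all distal peaks (869 of 89797). Sites that depart further from the consensus were not counted, so the 0 does not show that such sites are absent. The OCT octamer ATTTGCAT was found in 1 (1.18%), against 2.05% of all distal peaks. It lay in a Pvt1 intron downstream of Myc, in a peak of 306 bp (chr15:62055208-62055513), 14 bp from the centre. The ESRRB sequence TCAAGGTCA was found in 0, against 2.14%. The SOX sequence CNTTGT was found in 44 (51.8%), close to the overall share of 54.2%. At overall shares this low, counts of 0 or 1 among 85 peaks do not separate the members from other distal peaks.

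The KLF sequence GGGNGNGGC stood in 19 of the 85 distal members (22.4%), and in 12.1% of all distal peaks. These were 5 each at Mycl and Max, 3 each at Mycn and Lin28a, 2 at Myc and 1 at Lin28b. The E-box, the sequence bound by MYC and MAX themselves, stood in 6 (7.06%, against 4.71%), of which 3 were at Lin28a, 2 at Max and 1 at Mycn, with 0 at Myc, Mycl and Lin28b. CTCF, which binds at many domain boundaries, had a match in 13 (15.3%, against 12.9%). Of these, 6 were among the 13 distal peaks of Mycl, 3 at Lin28a, 2 at Max and 2 at Lin28b, with 0 of 15 at Myc and 0 of 9 at Mycn. Peaks of 1 locus share their surroundings, and no test was made of these counts.

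The other genes of both pathways were counted in the same way. All 13 further genes of the MYC-MAX network, such as the MXD repressors, had an own-TSS peak, as did all 13 genes of a list of let-7 processing factors and let-7 targets, where the share over protein-coding genes was 70.8%. The median number of distal peaks was 11 (2 to 25) in the MYC-MAX network, beside 9 (quartiles 5 and 13) over protein-coding genes. Mxi1, Zbtb17 and Trrap had the most with 25 each, and Mxd4 (2), Mlxip (5) and Kat5 (7) the fewest. In the list of let-7 processing factors and targets the median was 17 (3 to 26), with Trim71 (26), Hmga2 (22), Dicer1 (19) and Ago2 (19) at the top and Dis3l2 (3), Tut4 (6) and Arid3b (10) at the bottom. Of the genes whose products act with LIN28A on the let-7 precursor, Tut4 had 6 distal peaks, Tut7 15 and Dis3l2 3. Tut7 is given beside its paralogue Tut4 and was chosen after its value was seen. Of these, Dis3l2 was the only one below the lower quartile of protein-coding genes. Trim71 and Hmga2 are let-7 targets.

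Of the 12 let-7 genes, Mirlet7i had a peak within 1 kb of its annotated start, 2038 bp wide. Over all 2202 microRNA genes 19.4% had such a peak, and with so few let-7 loci 1 of 12 does not set them apart. For the other 11 (Mirlet7a-1, Mirlet7a-2, Mirlet7b, Mirlet7c-1, Mirlet7c-2, Mirlet7d, Mirlet7e, Mirlet7f-1, Mirlet7f-2, Mirlet7g and Mir98) the nearest peak was centred from 1.03 kb (Mirlet7g) to 44.6 kb (Mirlet7c-1) away. The annotated start of a microRNA gene is that of its hairpin and not of the primary transcript, and several of these genes share a locus and hence their peaks. The 9 distinct mature sequences have the seed GAGGUAG in common. Those of the gene with an own-TSS peak and of the genes with the nearest and the farthest peak are given 5′ to 3′ from RefSeq, with the seed (bases 2 to 8) in capitals. The let-7c sequence is common to Mirlet7c-1 and Mirlet7c-2, and the peak nearest to Mirlet7c-2 was centred 2.9 kb away.
let-7i: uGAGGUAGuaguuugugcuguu
let-7g: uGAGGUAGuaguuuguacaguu
let-7c: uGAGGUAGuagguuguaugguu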

How the data were processed

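ATAC-seq had been run on 54 samples of mouse embryonic stem cells. For the OCT4-AID peaks, the authors aligned reads to GRCm38 with STAR 2.6.1c, removed duplicates with Picard, called peaks on paired-end fragments with MACS2 2.1.1.20160309 and merged the peaks of all dox-treated libraries with BEDTools. The deposited values are chromosome, start and end in bp without any measure of height or coverage, so the depth behind a peak is unknown. The sources do not say if replicates were pooled before peak calling. A merged list keeps a region called in any library, so more or deeper libraries give more and wider peaks. The methods describe the removal of peaks above 5 kb, and the list held 11 such peaks, none of them among those described here. They also describe the removal of peaks that overlap input peaks or blacklisted regions. Whether these filters were applied to the list was not checked.

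Positions were read against GENCODE M21 and the RefSeq sequence of GRCm38.p6 and are given 1-based. A member peak had its centre no more than 100 kb from a transcription start site (TSS) that GENCODE gives for 1 of the 6 genes. Own-TSS peaks lay within 1 kb of a TSS of the gene, and distal peaks more than 1 kb from every TSS of any transcript. Counts were set beside those of all 21938 protein-coding genes. Motifs were matched on both strands in 300 bp at the peak centre, as ATTTGCAT for OCT, CNTTGT for SOX, CACGTG for the E-box, TCAAGGTCA for ESRRB and GGGNGNGGC for KLF. The composite OCT4::SOX2 consensus was matched with up to 2 mismatches and the CTCF consensus with up to 1. The OCT letters form part of the OCT4::SOX2 consensus, so both can match the same bases. Python 3.11.15, numpy 2.4.6, pandas 2.3.3 and matplotlib 3.10.9 were used, and the distance, count and motif functions were tested on simulated data with known answers.

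A merged list has no replicates, so no test was run and every comparison is a description. The genes, pathway lists and motifs were chosen with earlier results of these data known. Peaks described singly were the own-TSS peaks, the nearest and the widest distal peak of each gene, and distal peaks with an OCT4::SOX2 or OCT match. Of the pathway lists, the 3 genes with the most and the 3 with the fewest distal peaks were named, with those that lacked an own-TSS peak. Alternatives covered the window, the TSS limit, the annotation, narrow or adjoining peaks and the stretch searched for motifs. The choice of GENCODE basic transcripts alone was added after seeing the data.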

Additional observations from a re-analysis of the deposited data

How the results depend on the processing

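Of 99 recomputed values for 21 results, 73 stayed within 1.5 times the reported count, or within the interval of the median width, and 26 did not. The window mattered most. With 50 kb in place of 100 kb the 6 genes had 62 peaks, with 5 distal peaks at Myc, 5 at Mycn, 7 at Mycl, 11 at Max, 3 at Lin28a and 4 at Lin28b. With 200 kb they had 200 peaks, with 27 distal peaks at Myc, 19 at Mycn, 26 at Mycl, 20 at Lin28a and 11 at Lin28b, and Max had 36. Max had the most distal peaks in both windows. Counting only distal peaks whose nearest protein-coding TSS was that of the member left 5 at Mycl, 15 at Max, 0 at Lin28a and 4 at Lin28b, by construction. A TSS limit of 500 bp left 1 own-TSS peak each at Mycn, Lin28a and Lin28b, and a limit of 2500 bp gave Mycl 2. With basic transcripts only, Max, Lin28a and Lin28b had 1 each. Over the whole peak in place of 300 bp, the OCT sequence was found in 2 distal members (2.35%, against 3.05% of all distal peaks) and the E-box in 11 (12.9%, against 7.82%), since more bases were searched.

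The list gives no depth, peak height or sample, so peaks of high and low accessibility count alike, a region that opened in 1 library cannot be told from one open in all, and the absence of a peak does not show closed chromatin. Genes differ in their number of annotated TSSs, which sets their window and own-TSS count. No paired analysis was possible because the results come from no test and the list holds no sample values.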
